A study of Mus musculus with 123 samples.

Results

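The tubulin isotypes described here are 10 genes of the 24134 in the deposited expression tables, chosen by symbol. There are 5 alpha tubulins, Tuba1a, Tuba1b, Tuba1c, Tuba4a and Tuba8, and 5 beta tubulins, Tubb2a, Tubb2b, Tubb3, Tubb4a and Tubb6. The study asked how dorsal root ganglion (DRG) sensory neurons of adult mice respond to sciatic nerve transection (SNT). The right sciatic nerve was cut, and neurons of the contralateral ganglia served as the control. All animals were 2 months old. By the labels, the neurons at day 3 came from L5 ganglia of F1 mice (CAST/Eij male X C57BL/6 female) and were read at 50 bp. At day 7 they came from L3-L5 ganglia of C57BL/6 mice of both sexes and were read at 75 bp in pairs. The study's methods give the F1 mice as female. They name L3-L5 ganglia for the dissection but L5 for all 106 single neurons, with no split by day. Whether the ganglia differed between the days is thus not settled.

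Somata were picked by hand and amplified by Smart-seq2, which copies polyadenylated RNA without molecular identifiers. After removal of outlier cells by the authors there were 18 control-side and 41 SNT-side cells at day 3, and 14 and 33 at day 7. There were also 3 pooled libraries per side at day 3, and the 3 libraries of a side were parts of 1 lysate of many neurons. No label names an animal, so each side and day of cells was 1 sample and no test was made over cells. Strain, the mix of sexes, read length and sequencer all changed between the days, so that these cannot be told apart from time. The SNT side can hold neurons whose axons were not cut.

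Alpha and beta tubulin form the heterodimer from which microtubules are built, the tracks for axonal transport and the scaffold of a growing axon. The isotypes differ mostly in their last residues, the tail that projects from the microtubule and carries many of its modifications. Tuba1a is the main alpha tubulin of developing neurons, Tuba1b and Tuba1c are widely expressed close relatives, Tuba4a is a more divergent alpha tubulin of mature neurons, and Tuba8 is a divergent alpha tubulin. Tubb2a and Tubb2b are neuronal near-copies of each other, Tubb3 is the beta tubulin used as a marker of neurons, Tubb4a is abundant in mature nervous tissue, and Tubb6 is expressed broadly outside the nervous system. Several tubulin genes are long known to be raised in DRG neurons that regrow an axon.

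Near-identical sequence limits how far reads can be assigned to single isotypes. Over 50 bases, the read length at day 3, 59.0% of the windows along the Tuba1a transcript were found unchanged in another gene of the tables, as were 67.6% for Tuba1b, 59.9% for Tuba1c, 49.6% for Tubb2a and 39.3% for Tubb2b. For Tubb3 and Tubb6 the share was 0, and for Tubb4a and Tuba8 it was 0.184% and 0.181%. Coding sequences were 98.3% identical between Tuba1a and Tuba1b, 97.9% between Tuba1b and Tuba1c and 96.5% between Tubb2a and Tubb2b. The longest stretch shared without a difference ran over 551 coding bases of Tubb2a and Tubb2b and over 239 bases of all of Tuba1a, Tuba1b and Tuba1c. In contrast, Tuba4a shared 47.7% of its windows with Stk16, a kinase gene on the opposite strand whose end overlaps its own. The protocol gives no strand to the reads, so that reads from this overlap cannot be told apart.

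The ends of the coding sequences of Tubb2a and Tubb2b show this directly. The following are the last 75 coding bases on the strand of the gene, with the stop codon, from the GENCODE annotation of build GRCm38, and capitals mark bases that differ between Tubb2a and Tubb2b. Tubb2a lies at chr13:34074468-34074542 and Tubb2b at chr13:34127471-34127545, both on the minus strand and both in the last coding exon.
Tubb2a: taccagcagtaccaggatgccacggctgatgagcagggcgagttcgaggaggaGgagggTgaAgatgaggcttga
Tubb2b: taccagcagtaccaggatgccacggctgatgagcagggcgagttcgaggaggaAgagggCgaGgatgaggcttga
Tubb3, at chr8:123421608-123421682 on the plus strand, is shown because it ends in a tail unlike those of the other isotypes shown.
Tubb3: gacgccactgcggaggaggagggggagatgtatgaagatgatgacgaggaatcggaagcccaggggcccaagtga

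Levels are given as counts scaled to a library total of 1000000 (CPM), and for pooled libraries after scaling by trimmed means of M values (TMM). The depth of the pooled libraries was 563462 to 839135 counts for the control and 1148849 to 2003817 for the SNT side. Atf3, a transcription factor induced by axon injury, was higher on the SNT side of the pooled libraries by 6.86 on the log2 scale. The deposited table pairs the sides of the pooled columns in opposite ways by column name and by identifier, and the source label calls all 6 intact. The column names were used here, and under the identifiers every pooled difference would change sign. By the column names, mean Atf3 was 12.8 CPM in control and 1551 CPM in SNT pooled libraries. In day 3 cells it was 17.7 CPM on the control side and 1476 CPM on the SNT side, the same direction. The study also reports known regeneration genes as raised in its injured pools. Neuron class and glial markers also differed between the pools. Apoe, of satellite glia, fell from a mean of 10119.8 to 4102 CPM, Nefh, of large myelinated neurons, rose from 297 to 675 CPM, and P2rx3, of nonpeptidergic neurons, fell from 741 to 315 CPM. The summed level of 10 satellite and Schwann glia markers was 11931 to 14560.2 CPM in control libraries and 6437 to 7372 CPM in SNT libraries. Of these 10 genes 5 were called lower and 1 higher, none had 0 counts throughout, and their part in the tubulin results was not tested. The summed level of 7 neuron markers was 5644 to 6243 CPM in control and 5755 to 6292 CPM in SNT libraries, and the sides overlapped.

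Of the 10 isotypes, 9 were tested in the pooled libraries and 7 were called higher on the SNT side, with none lower. A gene was called at an adjusted p below 0.05 in edgeR's quasi-likelihood test over 13509 genes together with a change beyond 2-fold. Over all genes tested, 8.85% were called higher, and 961 of the 13509 were called lower. The median log2 change was 1.24 over the 9 isotypes and 0.02 over all genes. The other 2, Tuba1b and Tubb4a, had an adjusted p below the limit but changes of under 2-fold, so that all 9 passed the limit on p at some size, as did 24.8% of all genes in either direction. In all 9 the 3 SNT libraries lay above the 3 control libraries, and the sides were apart in either direction for 37.6% of all genes. The test compares 2 pools over the spread of their technical parts. Fewer cells of a type and less RNA per cell cannot be told apart in these pools.

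Tubb6 had the largest change among the isotypes. Its counts were 6, 14 and 6 in the control libraries and 793, 675 and 1183 in the SNT libraries. After scaling, control libraries held 7.79, 15.9 and 10.1 CPM and SNT libraries 496, 623 and 631 CPM. The groups lay far apart, and the mean rose from 11.2 ± 4.16 to 583 ± 75.9 CPM (SD, n = 3), a log2 change of 5.65 ± 0.23 (SE; edgeR adjusted p = 1.9e-22). Ordered from the largest rise, Tubb6 ranked 120 among all genes tested.

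Tubb3 was the beta tubulin with the highest level per length on either side. Control libraries held 2616, 3339 and 2866 CPM and SNT libraries 8876, 9373 and 10835 CPM. Every SNT library was thus above the highest control library by more than the spread of either side, with a log2 change of 1.72 ± 0.11 (SE; edgeR adjusted p = 2.8e-16). Tubb2a moved by a similar amount. It stood at 1228, 1511 and 1364 CPM in control and at 3893, 4618 and 4882 CPM in SNT libraries, a log2 change of 1.71 ± 0.11 (SE; edgeR adjusted p = 2.2e-15). Its near-copy Tubb2b was less abundant, with 256, 308 and 313 CPM in control and 684, 717 and 671 CPM in SNT libraries, and it rose by 1.24 on the log2 scale (SE 0.13). Counted as 1 feature, Tubb2a and Tubb2b rose by 1.63. Tubb4a stood at 1143, 1378 and 1203 CPM in control and at 1843, 2043 and 2151 CPM in SNT libraries, a log2 change of 0.70 ± 0.11 (SE; edgeR adjusted p = 8.0e-06) that was under the limit of size.

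Of the alpha tubulins, Tuba1c changed most by the counts assigned to it, although 59.9% of its windows of 50 bases are shared with other genes. It stood at 229.7, 217 and 252 CPM in control and at 903, 669 and 781 CPM in SNT libraries, a log2 change of 1.76 ± 0.14 (SE; edgeR adjusted p = 5.2e-13). Tuba1a, the tubulin with the highest level per length, stood at 5371, 6671 and 5896 CPM in control and at 11901, 12081 and 12746 CPM in SNT libraries. This was a log2 change of 1.03 ± 0.10 (SE; edgeR adjusted p = 4.6e-11), just past the limit of size, and it was 0.95 without control library 1. Tuba1b stood at 2661, 3542 and 2961 CPM in control and at 5376, 5424 and 6117 CPM in SNT libraries, with a log2 change of 0.88 (SE 0.11). Counted as 1 feature, the Tuba1 genes rose by 1.01. Gm6682, a processed pseudogene that shares bases with them, was also called higher, from 336 ± 56.0 to 689.8 ± 60.1 CPM (SD, n = 3), a log2 change of 1.03. How many reads moved between these genes was not tested. Tuba4a stood at 174, 195 and 182 CPM in control and at 388, 363 and 413 CPM in SNT libraries, a log2 change of 1.08 ± 0.15 (SE; edgeR adjusted p = 2.0e-07). Stk16, with which it shares bases, was at 80.3 ± 16.1 CPM in control and 84.5 ± 12 CPM in SNT libraries (SD, n = 3). With library size alone as the scaling, the changes of Tuba1a and Tuba4a were 0.88 and 0.92 and neither was called. Tuba8 had 0 counts in all 6 libraries and was not tested.

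**Figure D1:**
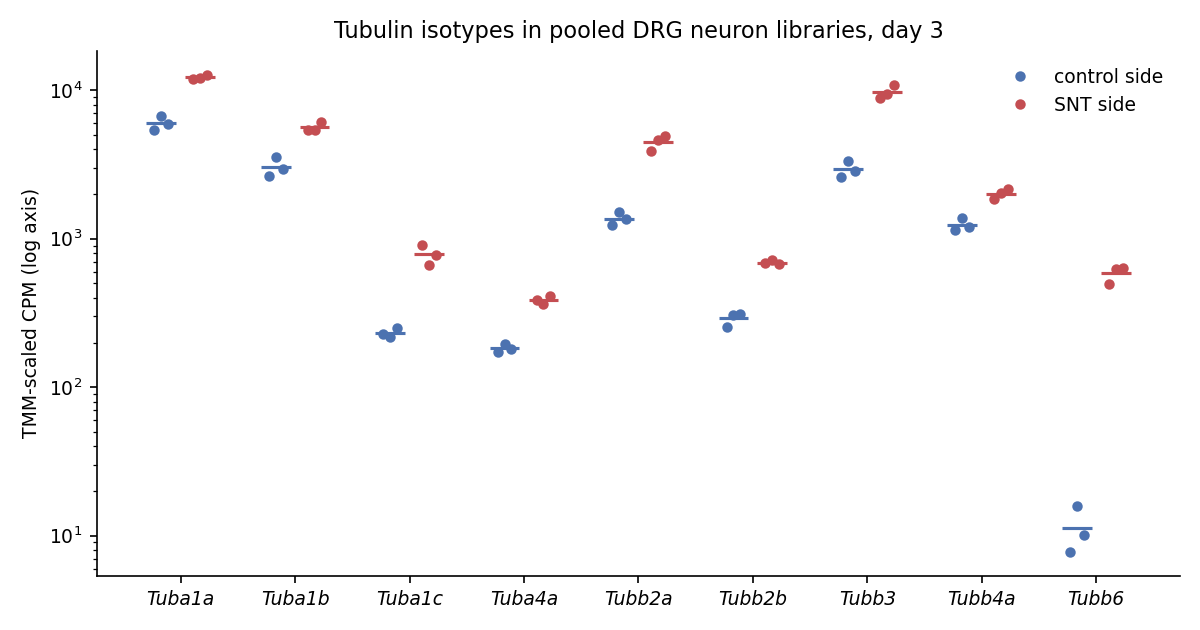
TMM-scaled CPM on a log axis of the 9 tested isotypes in each of the 3 control-side (blue) and 3 SNT-side (red) pooled libraries at day 3, with short lines at the means. The 3 SNT points lie above the 3 control points for all 9, with the widest gap for Tubb6 (7.79 to 15.9 against 496 to 631 CPM).

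Levels of different isotypes were compared per length, as CPM per kilobase of the RefSeq-matched transcript. In the control pool Tuba1a made up 63.2% of the summed alpha tubulin value, Tuba1b 33.3%, Tuba1c 2.26% and Tuba4a 1.24%. On the SNT side the shares were 64.3%, 30.6%, 3.75% and 1.29%, so that the order of the alpha tubulins was unchanged. The summed alpha value was 5251 ± 619 TMM-scaled CPM per kb in control and 10558 ± 486 in SNT libraries (SD, n = 3), a sum that was not tested. The beta tubulins, with Tubb5 and Tubb4b added, were more evenly spread in the control pool, where Tubb3 made up 32.4%, Tubb4b 20.9%, Tubb2a 17.5%, Tubb5 14.8%, Tubb4a 11.5%, Tubb2b 2.77% and Tubb6 0.129%. On the SNT side Tubb3 made up 44.3%, Tubb2a 23.7%, Tubb4b 10.00%, Tubb5 8.75%, Tubb4a 7.72%, Tubb6 2.83% and Tubb2b 2.72%. Tubb2a thus passed Tubb4b, and Tubb6 went from the lowest place to the level of Tubb2b, with which it did not differ beyond the spread (SD 0.199 and 0.287). The shares of Tubb3, Tubb2a, Tubb6 and Tuba1c were higher and those of Tubb4a, Tubb4b, Tubb5 and Tuba1b lower. Each had p = 0.10 in a two-sided exact permutation test. The share of Tubb2b differed by -0.0440 points with an exact p = 0.90, and that of Tuba1a by 1.14 points with an exact p = 0.20, which was 0.711 points without SNT library 2. With 3 against 3 libraries no p below 0.10 is possible, and 12 shares were compared, so none could pass the threshold.

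**Figure D2:**
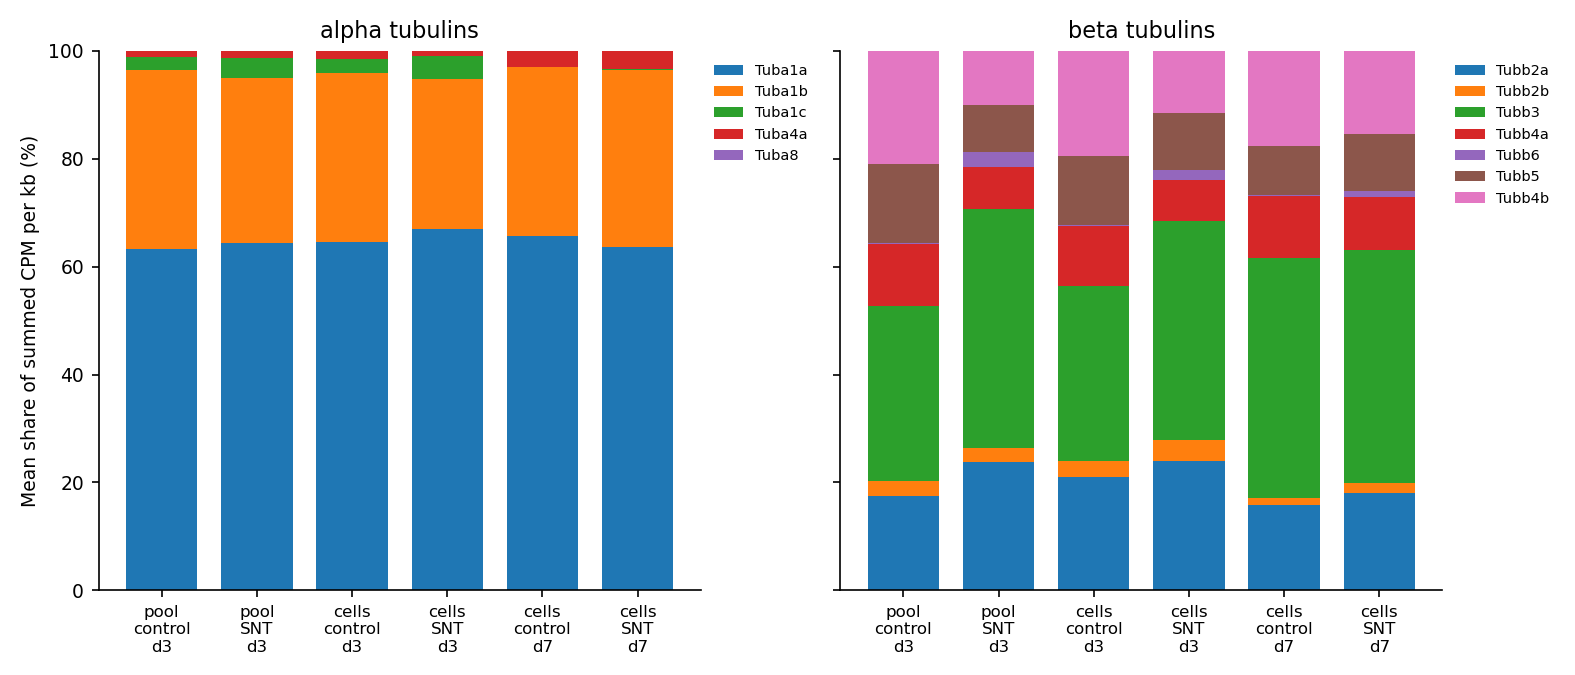
Mean share, in percent, of each isotype in the summed CPM per kb of alpha (left) and beta (right) tubulins, in pooled libraries and in cells by side and day (d3, d7). Tuba1a is the largest part of every alpha bar (63.2% to 66.9%), Tuba1c is under 1% in the cells at day 7 and Tuba4a is 3.04% and 3.3% there against 1.09% to 1.46% in the other groups, while the Tubb3 part of the beta bar is 32.4% in the control pool and 44.3% in the SNT pool.

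In single cells at day 3, 3 of the 10 isotypes were higher on the SNT side by over 2-fold in mean CPM and none was lower. Over the 9736 genes that reached a mean of 10 CPM on either side, 5.82% were higher by this amount and 591 were lower, and the median log2 ratio was -0.05. The 3 were Tubb6, Tuba1c and Tubb2b. Tubb6 was at 0, 7.3 and 63.4 CPM (lowest, median and highest) in control-side cells and at 0, 310.4 and 714 CPM in SNT-side cells. The SNT-side cells split into 32 that lay above every control-side cell and 9 that lay within their range. The mean was 11.4 ± 16 CPM over 18 control-side cells and 299 ± 206 CPM over 41 SNT-side cells (SD over cells), a log2 ratio of 4.6. Summed over cells, Tubb6 had 127 counts on the control side (95% exact Poisson interval 106 to 151) and 16613 on the SNT side (16361 to 16868), intervals that cover counting error only. Class markers also differed between the sides of these cells. The summed peptidergic markers had a median of 2339.9 CPM in control-side and 338 CPM in SNT-side cells. For nonpeptidergic markers the medians were 742 and 154 CPM, and for large myelinated markers 144 and 145 CPM. Their part in the isotype ratios was not tested.

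Tuba1c was at 119.8, 373 and 479 CPM in control-side cells at day 3 and at 297, 810.0 and 1624 CPM in SNT-side cells. Of the SNT-side cells 30 of 41 were above every control-side cell, and the log2 ratio was 1.23. Tubb2b was at 28.9, 361 and 769 CPM in control-side cells and at 92.1, 723 and 2304 CPM in SNT-side cells, with 17 of 41 above the highest control-side cell and a log2 ratio of 1.01. Tubb2b lay at the 2-fold limit, with 0.89 by summed counts. The abundant isotypes had log2 ratios of means below 1. Tuba1a had a median of 7827 CPM in control-side and 11607 CPM in SNT-side cells (log2 ratio of means 0.62), and 31 of 41 SNT-side cells were above every control-side cell. For Tubb3 the medians were 3228 and 6998 CPM (0.81), and its log2 ratio was 1.12 by medians and 1.02 by summed counts, past 2-fold and above that of Tubb2b by the same measures. For Tubb2a the medians were 2058 and 3351 CPM (0.74) and for Tuba1b 3250.2 and 4403 CPM (0.39), with overlapping sides.

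Tuba4a and Tubb4a, higher in the SNT pool, were close to level in day 3 cells. The scaling differs, as TMM was used for pools and the library total for cells. With library size alone the log2 changes in the pools were 0.92 for Tuba4a and 0.54 for Tubb4a. Tuba4a was at 0, 208 and 767 CPM in control-side cells and at 0, 202 and 701 CPM in SNT-side cells, a log2 ratio of 0.03 with no SNT-side cell above the control range. Tubb4a was at 951, 1479 and 2145 CPM and at 624, 1375 and 2732 CPM, a log2 ratio of -0.02. Tuba4a varied widely among the cells of a side, with an SD of 249 about a mean of 266 CPM on the control side. At day 3 its rank followed that of Nefh (Spearman 0.69 over 18 control-side and 0.75 over 41 SNT-side cells) and ran against that of P2rx3 (-0.69 and -0.85). At day 7 this held only in part. Over 14 control-side cells the values were 0.07 for Nefh and 0.28 for P2rx3, and over 33 SNT-side cells 0.78 and -0.16. Nefh itself was higher in the SNT pool, as given above, and its part in the Tuba4a result of the pools was not tested. Tubb2b ran the other way, with -0.69 against Nefh on both sides at day 3. At day 7 it had -0.80 over control-side and -0.86 over SNT-side cells, where Tubb2a also had -0.66 and -0.81. These values describe the cells of 1 side and day at a time, and no p is given.

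**Figure D3:**
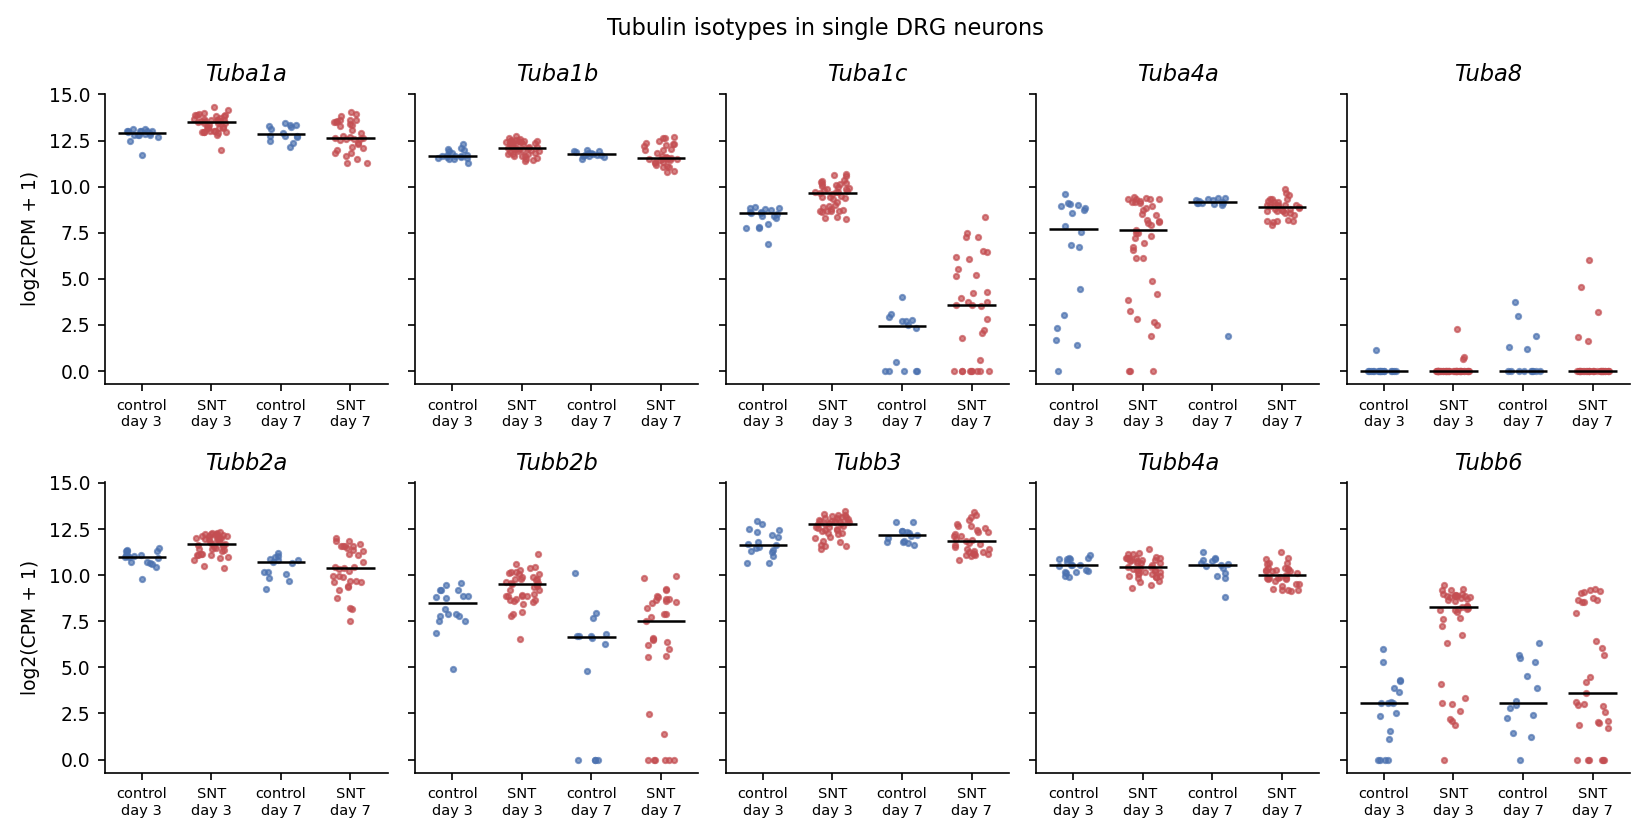
log2(CPM + 1) of each isotype in each cell, by side and day, with a black line at the median of the group (18, 41, 14 and 33 cells from left to right). Tubb6 splits into a high and a low set on the SNT side at both days, Tuba4a spreads widely at day 3, and Tuba1c is far lower at day 7 than at day 3 on both sides.

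In single cells at day 7, 2 of the 10 isotypes, Tubb6 and Tuba1c, were higher by over 2-fold and none was lower. Over 9622 genes 4.45% were higher by this amount and 309 were lower, with a median log2 ratio of -0.07. Tubb6 was at 0, 7.43 and 77.7 CPM in control-side cells and at 0, 11 and 597 CPM in SNT-side cells. Only 12 of 33 SNT-side cells lay above the control range, so that the mean differed by 2.96 on the log2 scale (19.9 ± 23.7 and 161 ± 222 CPM, SD over cells) while the medians differed by 0.51. Tuba1c, at low counts, had a log2 ratio of 3.1 with a pseudocount of 1, 1.88 with a pseudocount of 10 and 1.18 by medians, so that its order with Tubb6 depends on the pseudocount. Tuba1a (-0.01), Tuba1b (0.04), Tubb3 (-0.10), Tuba4a (-0.18) and Tubb2a (0.21) had log2 ratios near 0. The spread of Tuba1b was nonetheless wider on the SNT side, with 11 cells above and 13 below every control-side cell and an SD of 1399.6 against 342 CPM. Tubb3 had 4 SNT-side cells above and 14 below the control range, Tuba1a 9 and 9, and Tubb2a 11 and 5. For Tuba4a these were 3 and 0, and the SNT-side cell was the higher in 27.1% of pairs of cells. Tubb4a had a log2 ratio of -0.40 and Tubb2b of 0.65. The summed glial markers had a median of 5221 CPM (1246 to 9825) in control-side and 1499 CPM (507 to 13156) in SNT-side cells at day 7, and their part in these values was not tested.

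The sexes could be set side by side at day 7. Tubb6 had log2 ratios of 3.08 over 7 control-side and 16 SNT-side female cells and 2.75 over 7 and 17 male cells. For Tuba1c the ratios were 2.86 and 3.3, and for Tubb4a -0.40 and -0.39. For Tubb2b they were 1.34 in female and 0.13 in male cells. Of the control-side cells, 1 male cell with 1109 CPM stood far above the median of 98.7 CPM over both sexes. The male control-side mean, which includes this cell, was 207 ± 401 CPM (SD over cells), so the male ratio depends strongly on it. Mean Atf3 of SNT-side cells was 548 ± 574 CPM in female and 279 ± 549 CPM in male cells (SD over cells). Its part in these ratios and the differences between the sexes were not tested.

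The level of Tuba1c differed more between the days than between the sides. Control-side cells held 344 ± 101 CPM at day 3 and 3.95 ± 4.37 CPM at day 7, and SNT-side cells 807 ± 362 and 41.3 ± 70.2 CPM (SD over cells). At day 7 it had 41 counts over all 14 control-side cells. Gm6682, a processed pseudogene in which 52.7% of the windows of 50 bases and 38.8% of those of 75 bases are identical to Tuba1a, Tuba1b or Tuba1c, moved likewise. It was at 382 ± 63.2 CPM in control-side cells at day 3 and at 0.404 ± 0.820 CPM at day 7. Tuba1a, by contrast, was at 7465 ± 1302 and 7935 ± 2166 CPM in the same cells. Read length, pairing of reads, strain and the mix of sexes differ between the days, and cannot be told apart. Tuba8 was near 0 in all groups, with 1 and 6 counts summed over control-side and SNT-side cells at day 3 and 21 and 69 at day 7.

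Across SNT-side cells, a high level of several isotypes coincided with a high level of Atf3. At day 3, 30 of 41 SNT-side cells had more Atf3 than any control-side cell (75.7 CPM), and all 30 were among the 32 that lay above the control range of Tubb6. At day 7, 12 of 33 cells had more Atf3 than any control-side cell (29 CPM), and they were the same 12 that lay above the control range of Tubb6. For Tubb2a 11 cells were above the control range at day 7, and all were among these 12, as were the 9 of Tuba1a. For Tuba1b it was 10 of 11 and for Tuba1c 10 of 13, while none of the 3 cells with high Tuba4a was among them. The Spearman correlation with Atf3 over SNT-side cells was 0.54 for Tubb6 at day 3 and 0.73 at day 7, 0.64 and 0.73 for Tubb3, 0.66 and 0.59 for Tuba1a, and -0.29 and -0.27 for Tuba4a. Library depth moved with Tubb6 as well, with 0.35 and 0.57, and its part was not tested. Nefh ran against Tuba1a (-0.73), Tubb2a (-0.81) and Tubb6 (-0.55) over SNT-side cells at day 7. At day 3 these values were -0.29, 0.02 and 0.38. Over control-side cells at day 7 they were -0.68, -0.66 and -0.02. The part of neuron class was not tested.

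**Figure D4:**
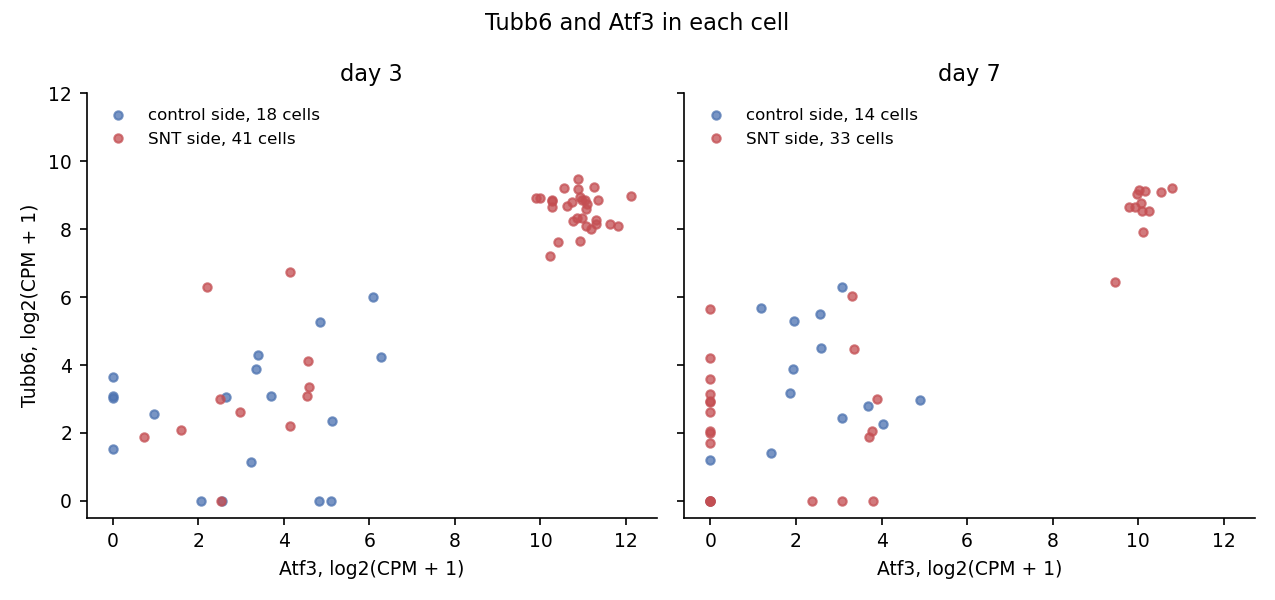
Tubb6 against Atf3, both as log2(CPM + 1), in each control-side (blue) and SNT-side (red) cell at day 3 (left) and day 7 (right). A separate set of 30 SNT-side cells at day 3 and 12 at day 7 is high in both genes, and the other SNT-side cells lie among the control-side cells or near them.

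The isotypes moved with each other to different degrees. Over SNT-side cells Tuba1a correlated with Tubb2a (Spearman 0.73 at day 3 and 0.96 at day 7), with Tubb3 (0.82 and 0.83) and with Tubb6 (0.50 and 0.73). Tubb2a and Tubb2b, which share bases, correlated with 0.59 and 0.92. Tuba4a ran against Tubb2b (-0.56 and -0.74). Over control-side cells Tuba1a had 0.41 at day 3 and 0.88 at day 7 with Tubb2a. With Tubb3 it had 0.48 and 0.55, and with Tubb6 -0.15 and 0.13. Control-side values for Tubb2a with Tubb2b were 0.57 and 0.85, and for Tuba4a with Tubb2b -0.73 and -0.04. Outside the tubulins, and over 9166 genes in 41 SNT-side cells at day 3, the gene most like Tubb6 was Cd59a (0.84, and 0.73 over 33 cells at day 7), the gene most like Tubb2b was Crmp1, a collapsin response mediator (0.87 and 0.87), and the gene most like Tuba4a was Pygb, brain glycogen phosphorylase (0.88 and 0.54). For Tuba1b it was Slc7a11 (0.82 and 0.92). For Tuba1a and Tubb3 it was Gm6682 at day 3 (0.87 and 0.86), with only 0.07 and 0.12 at day 7, when its counts were near 0. Only by its symbol is Gm6682 outside the tubulins, since it is the pseudogene that shares bases with the Tuba1 genes. The part of shared reads in these values was not tested.

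Other genes of the tubulin family were looked at in the same pools. They were set apart from the isotypes with earlier results of these data known, so nothing is read from the contrast. Of 11 further tubulin genes 6 were tested, and none was called in either direction, with a median log2 change of 0.11. Tubb5 stood at 1558, 2221 and 1944 CPM in control and at 2439.5, 2798 and 2893 CPM in SNT libraries, a log2 change of 0.51 (adjusted p = 0.0011 in edgeR), under the limit of size. Tubb4b stood at 1355, 1843 and 1678 CPM and at 1804, 1776 and 2017 CPM, and the sides overlapped (0.20, adjusted p = 0.23 in edgeR). Tubg1, the gamma tubulin that seeds microtubules, had a mean of 76.3 and 109 CPM (0.52, adjusted p = 0.055 in edgeR).

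Genes that fold, modify or bind tubulin were counted in the same pooled test. Of 8 folding cofactors, none was called in either direction. Of 3 tested genes of tyrosination and detyrosination, 1 was called higher, Vash2, a tubulin carboxypeptidase (log2 change 2.64). Of 12 tested genes of polyglutamylation and glycylation, 1 was called higher, Agtpbp1, which shortens polyglutamate side chains (1.10). Of 3 genes of acetylation, 1 was called higher, Hdac6, a tubulin deacetylase (1.73). None of these 3 lists had a gene called lower. Over all genes tested 8.85% were called higher and 961 of 13509 lower, so that nothing is read from single calls in lists of this size, here or in the following lists.

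For the next 3 lists the shares over all genes tested are again 8.85% called higher and 961 of 13509 called lower. Among 10 tested destabilisers and severing proteins 2 were called higher and 0 lower. Both were stathmins, which bind free tubulin dimers. Stmn4 rose from 3.4 ± 2.18 to 124 ± 5.88 CPM (SD, n = 3; log2 change 5.08) and Stmn2 from 2014 ± 114 to 5385 ± 104 CPM (1.42). Among 14 stabilising proteins 3 were called higher and 0 lower, namely Map7d1 (3.2), Map6 (1.74) and Map2 (1.46), all of which bind along microtubules. Among 14 subunits of chaperonin CCT and prefoldin, which fold new tubulin, 0 were called higher and 1 lower, the prefoldin subunit Vbp1 (-1.18). The median log2 change was 0.26 for the destabilisers, 0.54 for the stabilising proteins and 0.15 for the chaperones, beside 0.02 for all genes.

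**Figure D5:**
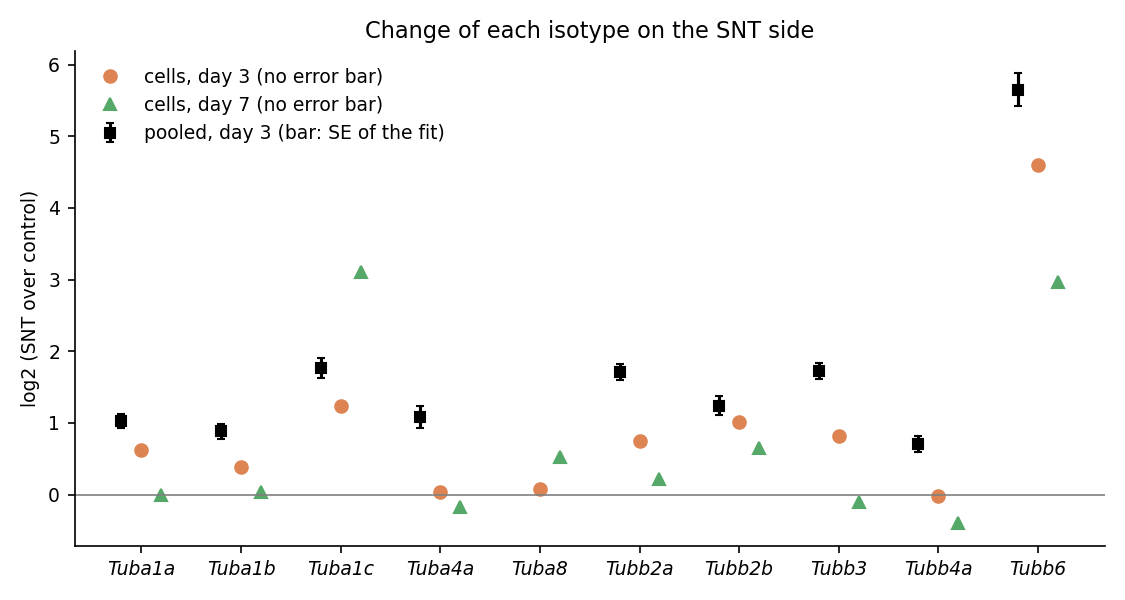
log2 change of each isotype on the SNT side over the control side in pooled libraries at day 3 (black, bar for the SE of the fit) and log2 ratio of mean CPM + 1 in cells at day 3 (orange) and day 7 (green), which have no error bar because each side is 1 sample. Tubb6 is highest in the pools and in day 3 cells, with 5.65 and 4.6, and in day 7 cells Tuba1c and Tubb6 have 3.1 and 2.96, an order that turns with a pseudocount of 10 (1.88 and 2.52). Pools were scaled by TMM and cells by the library total alone.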

How the data were processed

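Expression was measured in 117 single mouse DRG neurons, of which 106 were kept by the authors, and in 6 pooled libraries. Per the labels and the submitters' processing notes, reads were handled with CASAVA 1.8.2, Bowtie2 and RSEM on build mm9, and the authors used RefSeq exons and removed ribosomal RNA. The deposited values are expected counts, although the tables are named TPM: the totals per library lay between 223967 and 2003817, and exactly whole numbers, with no tolerance, made up 60.7% to 93.6% of the nonzero values. Every column of values was used. Groups and days came from the sample titles.

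CPM was the value divided by the library total. For pooled libraries counts were rounded and tested with edgeR 4.0.16 (R 4.3.3; TMM, mean of at least 1 CPM, prior count 0.125) at a limit of 0.05 on the adjusted p (Benjamini-Hochberg) and of 1 on the size of the log2 change. The fit was tested on simulated data. DESeq2 1.42.0 and limma 3.58.1 were alternatives. For cells the ratio was that of mean CPM + 1, and sizes past 2-fold were counted with no test. Intervals are exact at 95%. Libraries of the pools come from 1 lysate per side, so p-values measure technical spread. The members and gene lists were chosen with earlier results of these data known. Named genes were the 10 isotypes, further tubulins called or at 100 CPM or more in a group, up to 3 called genes per list with the largest change, and the 3 most alike genes per isotype, of which the first is given for most. Shares of transcript windows were computed from GENCODE M21 transcripts (GRCm38), and a coding stretch was shown without untranslated bases. Same-numbered pooled libraries shared only a number. Alternatives were other scalings, filters and tests, each library left out, cells with outliers, medians, summed counts, size factors, another pseudocount and each sex.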

Additional observations from a re-analysis of the deposited data

How the results depend on the processing

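In the pooled libraries 7 isotypes were called under each alternative test, filter and scaling apart from library size alone, which gave 5, and 6 without control library 1. Library size alone moved the median of all genes from 0.02 to -0.14 on the log2 scale and gave 980 genes called higher and 1264 lower, in place of 1196 and 961. Leaving out each pooled library gave 1067 to 1181 genes called higher, 809 to 969 lower, and 6 to 7 isotypes. With the library number as a replicate block 1137 genes were called higher and 872 lower, and 7 isotypes were called. The numbers do not pair the libraries, since deviations of same-numbered libraries correlated with 0.129, 0.006 and -0.023. Leaving out each pooled library for the shares was chosen after seeing the data. The difference in share kept its direction for the 10 other genes with counts. Its size moved by over 1.5 times for Tuba1a, to 0.711 points without SNT library 2, and for Tuba4a, from 0.0553 to 0.0916 without control library 1 and to 0.0173 without control library 2, while for Tubb2b it ran from -0.156 to 0.118 points around -0.0440.

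In day 3 cells 3 isotypes were past 2-fold, 2 with a pseudocount of 10, when Tubb2b fell just under the limit, and 4 with medians, when Tubb3 was added (1.12). With summed counts it was again 3, with Tubb3 (1.02) in place of Tubb2b (0.89). In day 7 cells the count past 2-fold was 1 with medians over cells in place of means, since Tubb6 then differed by 0.51, and 3 in female cells alone, where Tubb2b was added (1.34). Tuba1c at day 7 was below Tubb6 with a pseudocount of 10 (1.88 and 2.52) and in female cells (2.86 and 3.08). The cells carry no replicate error, and their differences cannot be separated from differences between animals.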
